A study of Homo sapiens with 12 samples.

Results

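A pair of epigenetic inhibitors was compared directly in NCI-H295R, a steroid-producing line derived from a human carcinoma of the adrenal cortex. The comparison took the 3 libraries of cells given the EZH2 inhibitor EPZ-6438 and the 3 libraries of cells given the CBP inhibitor PRI-724, which are 6 of the 12 RNA-seq libraries in the study, and asked which of all measured genes differed between them. The members were chosen by their treatment label alone. The EZH2i group received EPZ-6438 at 62 µM and the CBPi group PRI-724 at 26 µM, which the labels give as each agent's IC50 dose, and both were exposed for 96 h in 6-well plates. The 3 baseline libraries, from cells given only the vehicle DMSO for 96 h, were used to place each level. The 3 forskolin libraries were not compared with any group. Baseline and forskolin libraries also entered the filter for tested genes, the scaling and the estimate of the spread. With only the 6 inhibitor libraries, 19910 genes were tested in place of 20360. All groups came from 1 cell line with no altered gene named in the labels, each with 3 biological replicates. Because agent and dose differ together, a difference between the groups cannot be told apart as one of compound or of dose.

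EZH2 is the catalytic subunit of Polycomb repressive complex PRC2, which methylates lysine 27 of histone H3 and holds developmental genes silent. EPZ-6438, also known as tazemetostat, blocks that enzymatic activity. CBP is a histone acetyltransferase and coactivator, and PRI-724 is known as an agent that interferes with the partnership of CBP and β-catenin, the transcriptional effector of the Wnt pathway. The Wnt pathway is frequently active in adrenocortical carcinoma, and NCI-H295R is known to carry an activated β-catenin.

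Library totals were 29.5 to 31.5 megacounts with EPZ-6438 and 20.6 to 28.8 megacounts with PRI-724, a difference with an exact 2-sided permutation p of 0.1, the smallest that 3 against 3 libraries allow. CBPi replicate 2 stood apart from its group. Its counts differed from those of the other CBPi libraries by a chi-square per degree of freedom of 14.5 and 13.3, against 3.44 between CBPi replicates 1 and 3 and 3.17 to 6.70 among the EZH2i libraries, and pairs across the groups reached 43.9 to 66.5. Of 20 adrenocortical identity genes, 17 were tested, and most were below baseline. With EPZ-6438, 12 fell and 4 rose (28.3% and 29.5% of all genes tested), at a median of -0.60 on the log2 scale. With PRI-724, 13 fell and 3 rose (29% and 29.8% of all genes tested), at a median of -0.82. The summed level of the 17 was 5320 to 5465 CPM with EPZ-6438, 5340 to 6194 CPM with PRI-724 and 8215 to 8542 CPM at baseline. NR5A1, the master regulator of steroidogenic cells, was at 351 ± 7.81 CPM with EPZ-6438 and 323 ± 27 CPM with PRI-724 (SD, n = 3 each), against 588 CPM at baseline. INHA, another marker of this tissue, was low, at 1.53 and 1.14 CPM. Markers of other cell types were near 0 in some lists and present in others. The tested immune markers summed to at most 1.48 CPM in any inhibitor library, Schwann cell markers to at most 2.62 CPM and endothelial markers to at most 4.37 CPM, and PTPRC, PECAM1, TH and SOX10, which define immune, endothelial, chromaffin and Schwann cells, had at most 2 counts. Neuron markers summed to 178 to 184 CPM with EPZ-6438 and 117 to 130.2 CPM with PRI-724, chromaffin markers to 58.4 to 65.7 CPM and 97.6 to 101 CPM, nearly all of it CHGB, and fibroblast markers to 41.8 to 48.7 CPM and 14.7 to 18.8 CPM. Their part in the results was not tested.

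Gene expression separated the inhibitors widely, but mostly in small steps. Of 20360 genes tested, 8930 differed at an adjusted p under 0.05 (43.9%) by the quasi-likelihood test of edgeR, adjusted after Benjamini and Hochberg, 4408 of them higher with EPZ-6438 (21.7%) and 4522 higher with PRI-724 (22.2%). The median size of these differences was 0.39 on the log2 scale, and 6235 of them were estimated at under 1.5-fold. A test against a difference of 1.5-fold called 994 genes (4.88%), and here the balance was uneven, with 723 higher with EPZ-6438 (3.55%) and 271 higher with PRI-724 (1.33%). Among these, 226 genes were estimated at over 4-fold higher with EPZ-6438 and 15 at over 4-fold higher with PRI-724. The CPM values of the 3 EZH2i and the 3 CBPi libraries did not overlap for 52% of all genes tested. CPM is counts per megacount of a library's total over the 20360 genes tested, after scaling by the trimmed mean of M values (TMM). A positive log2 fold change always means a higher level with EPZ-6438.

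**Figure D1:**
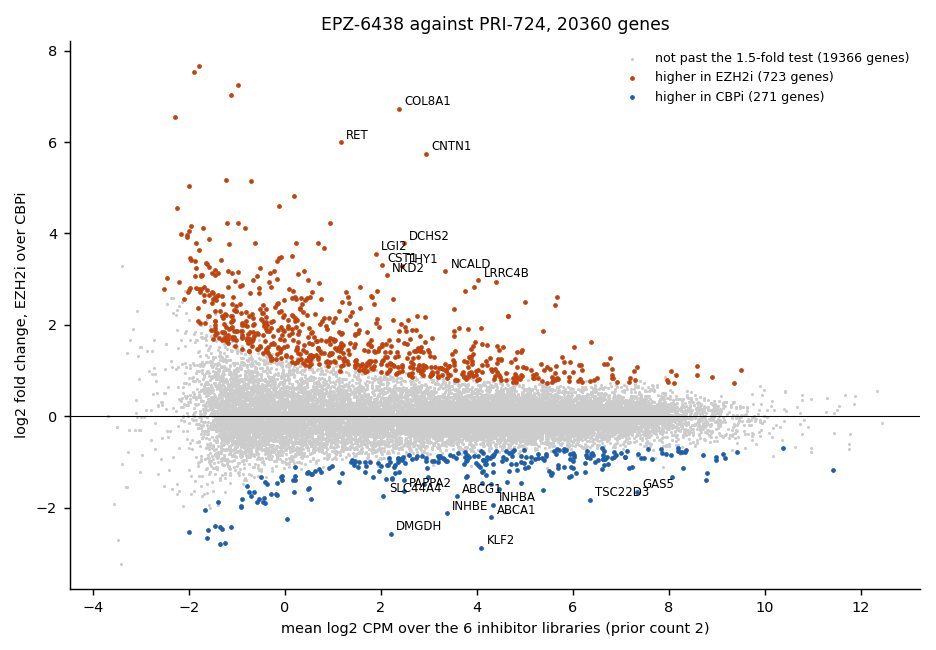
Each point is 1 of the 20360 genes tested, with its mean log2 CPM over the 6 inhibitor libraries on the x axis and its log2 fold change of EZH2i over CBPi on the y axis. The 723 genes higher with EPZ-6438 by more than 1.5-fold (orange) reach further from 0 and lie at lower expression than the 271 higher with PRI-724 (blue), and the 20 labelled genes are the largest differences that meet the naming rule.

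The sets of genes on either side of the 1.5-fold test had different levels in the DMSO libraries. Genes higher with EPZ-6438 had a median of 1.80 CPM at baseline, and 285 of the 723 were under 1 CPM there (39.4%). Those higher with PRI-724 had a median of 12.96 CPM at baseline, with 47 of 271 under 1 CPM (17.3%), close to the 12.8 CPM and 19.2% of all genes tested. Against baseline, the first set had a median log2 fold change of 0.97 with EPZ-6438 and -0.56 with PRI-724. The second set had -0.21 with EPZ-6438 and 0.92 with PRI-724. Both contrasts share the baseline libraries and the sets were chosen on the same inhibitor libraries, so these medians are a description without a test. A gene near 0 at baseline and with PRI-724 passes the filter for tested genes only if another group lifts it. The low baseline levels of the first set are therefore partly fixed by that filter, to an extent that was not tested. Gene lengths were similar, with medians of 4882 and 4238 bases against 4048.5 bases for all genes tested.

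The largest differences in favour of EPZ-6438, among genes past the 1.5-fold test with a mean log2 CPM of 1 or more and no overlap, included genes that were nearly silent with PRI-724. COL8A1 (ENSG00000144810, chr3:99638475-99799226, hg38, GENCODE release 29), which encodes a short-chain collagen of basement membranes, stood at 47.5, 50.8 and 51.2 CPM in the EZH2i libraries and 0.581, 0.456 and 0.383 CPM in the CBPi libraries. The groups lay far apart and the CBPi libraries overlapped those of baseline, which had 0.597 ± 0.34 CPM (SD, n = 3). The log2 fold change was 6.73 ± 0.17 (SE), a 107-fold difference, with an adjusted p of 2.16e-16. RET (ENSG00000165731, chr10:43077027-43130351), the receptor tyrosine kinase for glial-derived neurotrophic ligands, was at 16.1, 16.8 and 14.9 CPM with EPZ-6438 and 0.242, 0.373 and 0.139 CPM with PRI-724. Its CBPi values again overlapped the baseline of 0.216 ± 0.0572 CPM, and its log2 fold change was 5.99 ± 0.18 (adjusted p = 3.03e-15). CNTN1 (ENSG00000018236, chr12:40692442-41072418), a contactin that anchors axon contacts, had 53.6, 55.2 and 55.5 CPM with EPZ-6438 and 0.872, 1.33 and 0.87 CPM with PRI-724. It moved in opposite directions from its baseline of 2.65 ± 0.164 CPM, by log2 4.36 with EPZ-6438 (adjusted p = 2.19e-18) and -1.38 with PRI-724 (adjusted p = 6.98e-07), and the direct difference was 5.74 ± 0.10 (adjusted p = 1.38e-18).

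The remaining genes of this group split by what PRI-724 did relative to baseline. LGI2, a secreted leucine-rich repeat protein of the synapse, was at 13.1, 12.4 and 11.9 CPM with EPZ-6438 and 0.775, 1.12 and 1.22 CPM with PRI-724, either side of 6.64 CPM at baseline. CST1, a secreted cysteine protease inhibitor, had 11.1, 13.8 and 12.3 CPM and 1.16, 1.45 and 1.15 CPM, with 5.05 CPM at baseline. THY1, a surface glycoprotein of neurons and fibroblasts, showed 14.8, 16.4 and 18.5 CPM against 2.28, 1.7 and 1.25 CPM, with 5.46 CPM at baseline. For all 3 the EZH2i libraries were above every baseline library and the CBPi libraries were below every one. DCHS2, a giant protocadherin, behaved differently: its 22.2, 19.8 and 18.3 CPM with EPZ-6438 and 1.5, 1.49 and 1.39 CPM with PRI-724 were both above the 0.411 ± 0.153 CPM of baseline, by log2 5.64 and 1.86 (adjusted p = 9.75e-16 and 1.4e-05). NCALD, a neuronal calcium sensor, had log2 3.18 ± 0.10 between the inhibitors, NKD2, a feedback antagonist of Wnt signalling, 3.08 ± 0.15, and LRRC4B, a synaptic adhesion protein, 2.98 ± 0.11. Their adjusted p values were 4.08e-15, 3.95e-12 and 4.99e-13 by edgeR's quasi-likelihood test.

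On the other side, the largest differences in favour of PRI-724 under the same limits were smaller in fold and included lipid exporters and TGF-β family ligands. KLF2 (ENSG00000127528, chr19:16324817-16327874), a zinc finger transcription factor known from endothelium and lymphocytes, was at 50.5, 31.4 and 58.6 CPM with PRI-724 and 6.42, 6.12 and 6.52 CPM with EPZ-6438. The groups were clear of each other, although CBPi replicate 2 was the lowest of its group. The log2 fold change was -2.88 ± 0.22 (adjusted p = 3.09e-06), and the EZH2i level was not separated from the baseline of 8.08 ± 0.96 CPM (adjusted p = 0.298). ABCA1 (ENSG00000165029, chr9:104781002-104928237), the exporter that loads cholesterol onto apolipoproteins, was at 45.9, 42.9 and 37.8 CPM with PRI-724 and 9.32, 8.97 and 8.94 CPM with EPZ-6438, with 11 ± 1.48 CPM at baseline. Its log2 fold change was -2.21 ± 0.09 (adjusted p = 1.44e-13). ABCG1, a partner exporter that delivers cholesterol to mature lipoproteins, had 22.3, 21.8 and 21.5 CPM against 6.39, 7.25 and 5.79 CPM, again with no overlap, and a log2 fold change of -1.75 ± 0.10 (adjusted p = 1.59e-11).

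INHBA and INHBE encode β subunits of the inhibin and activin ligands. INHBA stood at 40.8, 39.5 and 38.1 CPM with PRI-724 and 11, 10.3 and 9.4 CPM with EPZ-6438, and INHBE at 22.4, 19.98 and 22 CPM and 5.19, 4.63 and 4.9 CPM. Each was higher with PRI-724 in 3 of 3 libraries, and both agents were above the baseline of 4.11 and 1.58 CPM. The direct log2 fold changes were -1.94 ± 0.08 and -2.12 ± 0.10 (adjusted p = 2.16e-13 and 2.46e-12). TSC22D3, also called GILZ, a leucine zipper protein best known as a glucocorticoid-induced gene, had 152, 149.9 and 157 CPM with PRI-724 and 42.2, 44.2 and 43.2 CPM with EPZ-6438. The EZH2i libraries overlapped those of baseline (44.8 ± 1.96 CPM), and the log2 fold change of -1.82 ± 0.05 had an adjusted p of 2.16e-16. GAS5, a long noncoding RNA that hosts small nucleolar RNAs, was at 248, 332 and 277 CPM against 92.6, 85.2 and 94.9 CPM, a log2 fold change of -1.65 ± 0.10 (adjusted p = 3.14e-08). CBPi replicate 2 held the highest GAS5 value.

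DMGDH, a mitochondrial enzyme of choline breakdown, was at 11.1, 11.6 and 10.4 CPM with PRI-724 and 1.85, 1.75 and 1.92 CPM with EPZ-6438, both above the 0.513 CPM of baseline. PAPPA2, a protease that frees insulin-like growth factors, had 10.1, 9.86 and 9.25 CPM against 3.61, 2.68 and 3.05 CPM, with 0.72 CPM at baseline. SLC44A4, a choline and thiamine pyrophosphate transporter, was the exception among the 10 genes that the naming rule takes on this side, since its 7.41, 8.12 and 6.85 CPM with PRI-724 lay near the 7.26 ± 0.215 CPM of baseline while EPZ-6438 left 2.41, 2.05 and 2.18 CPM. The log2 fold changes of DMGDH, PAPPA2 and SLC44A4 were -2.58 ± 0.12, -1.64 ± 0.11 and -1.74 ± 0.12, with adjusted p values of 1.19e-12, 6.89e-10 and 4.96e-10 by edgeR's quasi-likelihood test.

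**Figure D2:**
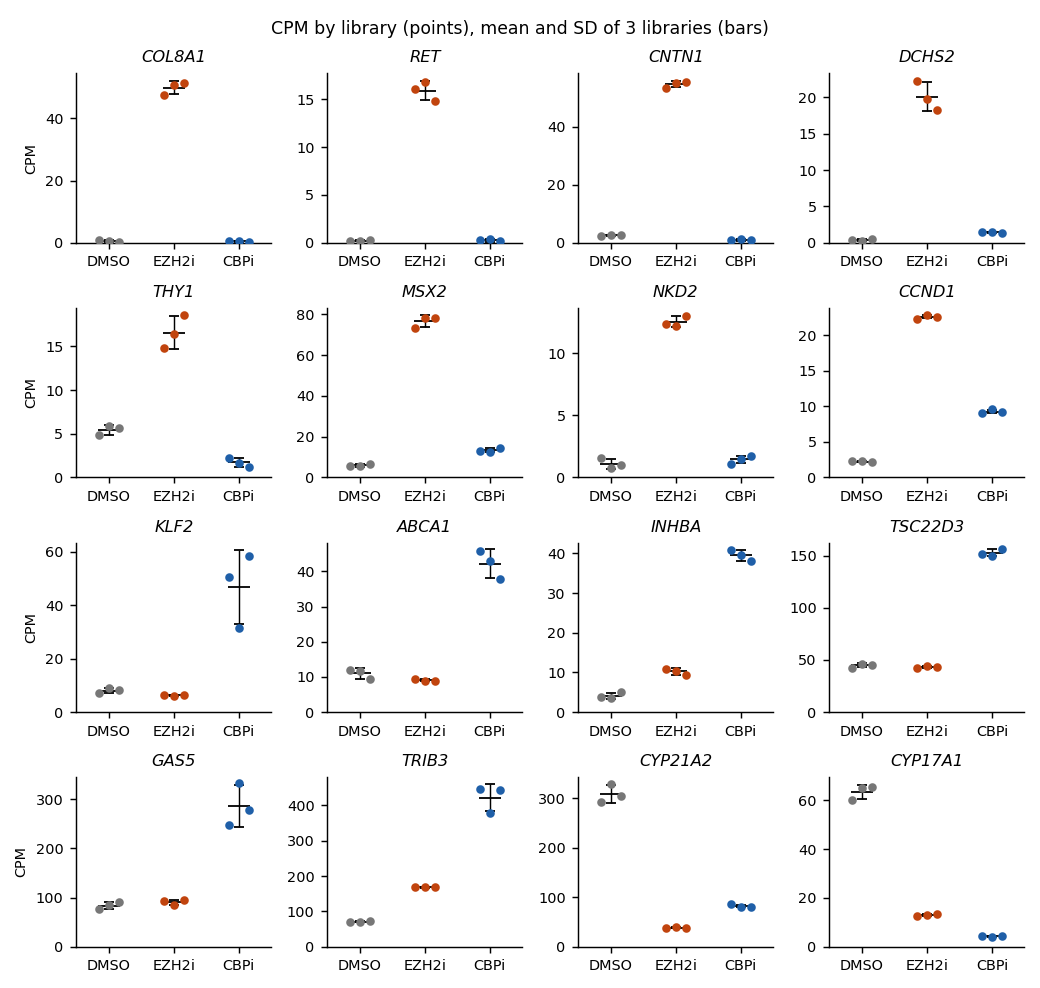
CPM on linear y axes for 16 named genes in the 3 DMSO (grey), 3 EZH2i (orange) and 3 CBPi (blue) libraries, 1 point per library, with bars for the mean and SD of each group. For COL8A1 and RET the CBPi points sit near the DMSO points, while for KLF2, ABCA1, TSC22D3 and GAS5 it is the EZH2i points that do.

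Gene lists were then described by their counts and medians, beside the 21.7% and 22.2% of all genes called in each direction and the overall median of -0.01. The filter for tested genes bears on the lists too. A member near 0 at baseline and with PRI-724 was tested only if another group lifted it. The direction of such members is partly fixed by the filter, and their part in the list counts and medians was not tested. Developmental genes listed as Polycomb targets leaned towards EPZ-6438, but most did not differ by much. The 46 transcription factor and ligand genes tested summed to 2087 to 2127 CPM with EPZ-6438 and 1800 to 2153 CPM with PRI-724. Baseline had 1645 to 1666 CPM, so the list was not silent as a whole. Against baseline, 26 rose and 7 fell with EPZ-6438 (29.5% and 28.3% of all genes tested). With PRI-724, 18 rose and 14 fell (29.8% and 29%). Between the inhibitors, 20 of the 46 were higher with EPZ-6438 and 5 higher with PRI-724, at a median log2 fold change of 0.25. All 7 that passed the 1.5-fold test were higher with EPZ-6438. The count higher with PRI-724 ran from 2 without CBPi replicate 3, over 3 without EZH2i replicate 1 or 2 or CBPi replicate 1, to 8 without CBPi replicate 2, where 1 also passed the 1.5-fold test. MSX2, a homeobox factor of limb and craniofacial development, was the most abundant of those, at 73.1, 78.1 and 78.3 CPM with EPZ-6438 and 12.9, 12.6 and 14.6 CPM with PRI-724. The groups were clear of each other and of the baseline of 5.89 ± 0.526 CPM, and the log2 fold change was 2.51 ± 0.08 (adjusted p = 3.27e-15). ISL1, a LIM homeobox factor of motor neurons and heart, was at 1.57, 1.99 and 2.02 CPM against 0.145, 0.332 and 0.104 CPM (log2 3.25 ± 0.37, adjusted p = 6.06e-07). CDX2, an intestinal homeobox factor, and HAND2, a factor of heart and sympathetic development, had log2 fold changes of 2.35 and 2.48 at means of 2.58 and 0.705 CPM with EPZ-6438. The 5 members higher with PRI-724 were SOX8, TBX2, SIX2, TWIST1 and MEIS1, with log2 fold changes of -0.70, -0.43, -0.23, -0.21 and -0.18. The last 3 calls did not hold with single libraries left out: SIX2 was lost without EZH2i replicate 3 or CBPi replicate 1 or 3, TWIST1 without any single library other than CBPi replicate 2, and MEIS1 without any other than EZH2i replicate 3 or CBPi replicate 1.

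The HOX genes, which set position along the body axis and lie in 4 clusters, were called mostly in favour of EPZ-6438. Over all 35 tested, 16 were higher with EPZ-6438 and 2 with PRI-724, the latter being 4 without CBPi replicate 2 and 1 without CBPi replicate 3. In the HOXC cluster on chromosome 12, 8 of 9 were higher with EPZ-6438, at a median log2 fold change of 0.93. The corresponding counts were 4 of 11 in HOXA, 3 of 9 in HOXB and 1 of 6 in HOXD, with medians of 0.16, 0.07 and 0.18; the difference between clusters was not tested. HOXC13 was at 26, 24.1 and 23 CPM with EPZ-6438 and 10.2, 8.12 and 8.07 CPM with PRI-724, and HOXC12, its neighbour, at 12.4, 13 and 13.3 CPM and 5.67, 3.85 and 5.91 CPM. Neither gene's groups overlapped, and the log2 fold changes were 1.48 ± 0.09 and 1.32 ± 0.12 (adjusted p = 5.32e-11 and 3.45e-08). HOXC8 and HOXC10 followed with 1.38 ± 0.22 and 1.10 ± 0.11. HOXB4 and HOXA10 were the members higher with PRI-724, at log2 -0.65 and -0.20, and the HOXB4 call was lost without CBPi replicate 3 (adjusted p = 0.0762).

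The Polycomb machinery itself differed in small steps. EZH2, the target of EPZ-6438, was at 96.7, 96.1 and 98.7 CPM with EPZ-6438 and 82.9, 85.7 and 81 CPM with PRI-724, a log2 fold change of 0.22 ± 0.04 (adjusted p = 0.000191). The values did not overlap, but the difference was 1.17-fold. SUZ12, EED and EZH1, the core partners and the paralog of EZH2, had log2 fold changes of -0.11 ± 0.05, 0.01 ± 0.06 and -0.03 ± 0.08, with adjusted p values of 0.0505, 0.914 and 0.796 by edgeR's quasi-likelihood test. Of the 31 subunits tested, 17 were called (54.8% against 43.9% of all genes tested), 12 higher with EPZ-6438 and 5 with PRI-724. These counts were 9 to 11 and 5 to 7 with 1 library left out. None of the 31 passed the 1.5-fold test, which 4.88% of all genes tested passed. JARID2 and CBX2, an accessory subunit of PRC2 and a chromatin reader of PRC1, had the largest values in favour of EPZ-6438 (0.43 and 0.48), and PCGF1, of a variant PRC1, the largest in favour of PRI-724 (-0.52).

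Adhesion and guidance molecules of the nervous system were more often higher with EPZ-6438 than with PRI-724. Among cadherins and protocadherins, which join neighbouring cells, 18 of 27 tested were higher with EPZ-6438 and 0 with PRI-724, with a median of 0.71, and 7 passed the 1.5-fold test (4 with DESeq2). CELSR1, a planar polarity cadherin, had 3.83, 2.81 and 4.01 CPM against 0.969, 0.539 and 0.905 CPM, with a log2 fold change of 2.14 ± 0.24 (adjusted p = 5.32e-07). CDH10 and CDH7, both neuronal cadherins, had larger estimates of 4.22 and 3.97 at means of only 1.61 and 0.497 CPM with EPZ-6438. The limit set by the filter applies to such low members, and their part in the cadherin counts and median was not tested. Of the 47 axon guidance genes, 28 were higher with EPZ-6438 and 5 with PRI-724 (median 0.35), and 11 against 0 passed the 1.5-fold test, with 1 in favour of PRI-724 without EZH2i replicate 3 or CBPi replicate 2.

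Ligands and receptors were both among those 11. The semaphorins SEMA5A and SEMA3C were at 3.15, 3.77 and 2.98 CPM and 6.02, 6.79 and 5.76 CPM with EPZ-6438 and at 0.339, 0.29 and 0.244 CPM and 0.533, 1.12 and 1.08 CPM with PRI-724. The EZH2i libraries were higher for both without overlap, with log2 fold changes of 3.51 ± 0.25 and 2.72 ± 0.18 (adjusted p = 8.24e-10 and 2.53e-10). The ephrin receptor EPHA5 and the ligand NTN1 had log2 fold changes of 3.43 and 2.62 at under 2 CPM. Against this direction, NTN4, the semaphorin coreceptors NRP1 and NRP2, SEMA3D and ROBO1 were higher with PRI-724, with log2 fold changes of -0.81, -0.56, -0.31, -0.44 and -0.20. Contactins and other neural adhesion genes gave 15 higher with EPZ-6438 and 5 with PRI-724 of 25 tested, the latter count being 2 to 4 with any 1 library left out (2 without EZH2i replicate 1 or CBPi replicate 3, and 3 without EZH2i replicate 2 or 3). Of the neuron markers, 3 of 4 tested were higher with EPZ-6438, among them SYT1, a synaptic vesicle calcium sensor, at 15.3, 13.1 and 14.4 CPM against 3.1, 2.98 and 3.24 CPM (log2 2.20 ± 0.10, adjusted p = 1.01e-12).

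Collagen chains were divided. Of 34 chains tested, 13 were higher with EPZ-6438 and 8 with PRI-724, beside 21.7% and 22.2% of all genes tested. The 7 past the 1.5-fold test were all higher with EPZ-6438. That number was 4 without EZH2i replicate 2, 3 with DESeq2 or limma, and 5 without CBPi replicate 2, where 1 chain passed in favour of PRI-724. Besides COL8A1, its partner chain COL8A2 was higher, at means of 0.962 and 0.192 CPM (log2 2.40 ± 0.53, adjusted p = 0.00107). The 8 higher with PRI-724 were COL6A2, COL15A1, COL26A1, COL4A1, COL4A4, COL4A2, COL4A3 and COL6A1, which include 4 type IV chains of basement membranes, with log2 fold changes from -0.65 to -0.31. The COL4A3 call was lost without any single library other than CBPi replicate 1. Of 8 fibroblast markers, 6 were tested and 4 were higher with EPZ-6438 (COL1A1, COL3A1, COL1A2 and THY1) and none with PRI-724. The summed level of the 6 was 41.8 to 48.7 CPM with EPZ-6438, 14.7 to 18.8 CPM with PRI-724 and 38.8 to 41.2 CPM at baseline, while LUM was at most 0.06 CPM in the mean of either inhibitor group. Against baseline, 1 of the 6 rose and 3 fell with EPZ-6438, at a median log2 fold change of -0.25 (29.5% and 28.3% of all genes tested). With PRI-724, 0 rose and 5 fell, at a median of -1.65 (29.8% and 29%). The part of these markers in the collagen result was not tested. Integrins and laminins went both ways, with 13 higher with EPZ-6438 and 15 with PRI-724 of 36 tested, and 3 on each side passed the 1.5-fold test, although the number higher with EPZ-6438 was 5 with upper quartile scaling, 6 with no filter and 7 with library size only. ITGA4, an integrin of leukocytes and neural crest, had log2 2.94 ± 0.37 and ITGA6, a laminin receptor, 1.14 ± 0.08.

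Genes of the integrated stress response, the programme in which phosphorylated eIF2α raises the transcription factor ATF4 and with it amino acid supply genes, had the lowest median of any list with at least 10 tested genes. Of 35 tested, 32 were higher with PRI-724 and 1 with EPZ-6438, and 18 passed the 1.5-fold test, all higher with PRI-724. The median log2 fold change was -0.83. Both agents were above baseline for most of the list: 30 rose and 3 fell with EPZ-6438 (29.5% and 28.3% of all genes tested), at a median log2 fold change of 1.12, and 31 rose and 4 fell with PRI-724 (29.8% and 29% of all genes tested), with a median of 1.98. Leaving out CBPi replicate 2 gave 32 and 1 again.

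Regulators and targets of the response both differed. ATF4 itself was at 210.0, 219.5 and 216 CPM with EPZ-6438 and 260.2, 263 and 257 CPM with PRI-724, separated without overlap but by log2 -0.27 ± 0.04 only (adjusted p = 1.32e-05). DDIT3, which encodes the pro-apoptotic factor CHOP, was at 43, 44.5 and 41.9 CPM and 91.6, 104 and 88.4 CPM. TRIB3, a pseudokinase that feeds back on ATF4, had 169.7, 168 and 168 CPM and 445, 377 and 443 CPM. Every CBPi library was above every EZH2i library for DDIT3 and TRIB3, and every EZH2i library was above baseline (16 and 71.2 CPM). Their log2 fold changes were -1.13 ± 0.06 and -1.32 ± 0.05 (adjusted p = 2.33e-11 and 1.44e-13). GDF15, a stress cytokine, was at 18.3, 18.5 and 17.7 CPM against 41.5, 29.9 and 41.2 CPM, and baseline had 2.47 ± 0.283 CPM. Both inhibitor groups were several-fold above baseline, and their direct difference was log2 -1.05 ± 0.09 (adjusted p = 4.69e-08). ADM2 and ALDH1L2, a secreted peptide and a mitochondrial folate enzyme, had -1.32 ± 0.10 and -1.33 ± 0.10, and ASNS, asparagine synthetase, -0.70 ± 0.05. ALDH18A1, of proline synthesis, was the member higher with EPZ-6438 (log2 0.19 ± 0.05), and the other 2 did not pass. TRIB3, GDF15 and ATF4 were named after their values had been seen.

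Promoters of this list were examined for the letters TGATGNAA, the composite element to which ATF4 binds together with C/EBP factors, on both strands of the 250 bases before each gene's first listed start in RefSeq (GRCh38.p14). They were present in 4 of the 28 members that had an entry (14.3%) and in 179 of 12660 promoters of all genes tested (1.41%). A match is a description of these letters and no evidence of binding. FGF21, a stress hormone at log2 -1.33 ± 0.28 between the inhibitors, and ATF3, a stress-induced factor at log2 -0.30 ± 0.08, are shown because their matches lie outside any annotated exon, at chr19:48755444-48755503 and chr1:212565190-212565249 on the plus strand. Capitals mark the match, which FGF21 carries on the opposite strand.
FGF21: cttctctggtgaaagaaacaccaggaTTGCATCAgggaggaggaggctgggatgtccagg
ATF3: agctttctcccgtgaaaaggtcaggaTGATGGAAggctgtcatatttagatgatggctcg
The other matches were in CHAC1 and ASNS.

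Aminoacyl-tRNA synthetases, which charge tRNAs and are in part ATF4 targets, leaned the same way, with 25 of 38 higher with PRI-724 and 1 (RARS1, a call lost without EZH2i replicate 2 or 3 or CBPi replicate 1 or 3) higher with EPZ-6438, a count of up to 3 without single libraries and 5 with library size only, and a median of -0.28. WARS1 was at 149.9, 147 and 139 CPM against 280.1, 281 and 277 CPM (log2 -0.94 ± 0.04, adjusted p = 2.9e-13), with no overlap. The mitochondrial heat shock protein HSPA9 moved to either side of its baseline of 501 ± 8.47 CPM, to 371, 363 and 358 CPM with EPZ-6438 and 708, 704 and 697 CPM with PRI-724, and its log2 fold change was -0.95 ± 0.03 (adjusted p = 5.19e-14). Heat shock chaperones as a list did not follow it, with 12 of 26 higher with EPZ-6438 and 4 with PRI-724, at a median of 0.09. Genes of the endoplasmic reticulum stress response were divided, with 7 higher with EPZ-6438 and 13 with PRI-724 of 30. HSPA5, the main chaperone of that compartment, had log2 -0.08 ± 0.04 and did not pass (adjusted p = 0.0803), while SEL1L, of the degradation machinery, had -0.78 ± 0.04 (adjusted p = 7.46e-12). HMOX1, heme oxygenase and a target of the oxidative stress factor NRF2, was higher with PRI-724, at 245, 231 and 252 CPM against 144, 147 and 150.3 CPM, and its log2 fold change was -0.72 ± 0.05 (adjusted p = 1.84e-10). NRF2 targets as a list did not follow it, with 12 of 30 higher with EPZ-6438 and 5 with PRI-724.

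Replication-dependent histone genes gave the largest list median in favour of EPZ-6438 among lists of at least 10 tested genes. These genes supply the core and linker histones of new chromatin, and their transcripts mostly end in a stem-loop without a poly(A) tail, so polyadenylated libraries capture only part of them. Of 49 tested, 33 were higher with EPZ-6438 and 2 with PRI-724, at a median log2 fold change of 1.08, and 24 passed the 1.5-fold test, all higher with EPZ-6438. Their summed level was 618 to 628 CPM with EPZ-6438, 208 to 231 CPM with PRI-724 and 524 to 542 CPM at baseline. Against baseline, 13 rose and 18 fell with EPZ-6438, beside 29.5% and 28.3% of all genes tested. With PRI-724, 0 rose and 44 fell, beside 29.8% and 29%. The gap between the inhibitors thus came with low levels in the CBPi libraries. Leaving out CBPi replicate 2 gave 31 and 0.

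The difference was present among H1, H2A, H2B and H3 genes and mixed among H4 genes. In favour of EPZ-6438 were 3 of 4 H1 genes, 6 of 10 H2A, 12 of 14 H2B and 8 of 9 H3 genes, with 0 in favour of PRI-724, while H4 had 4 and 2 of 12. H1-2 (ENSG00000187837, chr6:26055787-26056428), a linker histone, was at 122, 129.9 and 124 CPM with EPZ-6438 and 20.3, 20.2 and 21 CPM with PRI-724, and baseline had 114 ± 6.12 CPM. The EZH2i libraries were all above those of baseline by a small margin, the CBPi libraries far below, and the log2 fold change was 2.61 ± 0.06 (adjusted p = 2.03e-17). H2BC21, the most abundant H2B gene here, had 148, 144 and 145 CPM against 50.2, 44.6 and 47.6 CPM (log2 1.62 ± 0.05, adjusted p = 2.79e-15), and H2BC12 81, 78.7 and 77.4 CPM against 22.3, 19.9 and 22.4 CPM (log2 1.87 ± 0.06, adjusted p = 1.88e-14). H4C12 and H4C11 were the genes higher with PRI-724, at log2 -0.72 ± 0.25 and -0.56 ± 0.22 and means near 1 CPM. Neither call held under every alternative: the adjusted p ranged from 0.0132 to 0.110 for H4C12 and from 0.0169 to 0.201 for H4C11, the last without CBPi replicate 2. Several histone genes are near-identical copies, among them H4C14 with H4C15 and H4C11 with H4C12, and how shared reads were counted is not given, so single members are uncertain.

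Promoters of the histone genes were described as a family, whatever the direction of each member. Members called and not called were not compared, so the motif counts say nothing about the difference between the inhibitors. A match is no evidence of binding. In the 250 bases before the start, 45 of the 49 had an entry, and the letters TATAAA were found in 27 (60%, against 5.92% of 12660 promoters), CCAAT in 37 (82.2% against 34.9%) and ATTTGCAT, the octamer known from H2B promoters, in 19 (42.2% against 1.39%), searching both strands. These motifs do not overlap in the stretches below, which are the 120 bases before the start on the gene's own strand (RefSeq, GRCh38.p14, all minus strand genes), with matches in capitals. H2BC21 lies at chr1:149886683-149886802, H1-2 at chr6:26056471-26056590, H2BC12 at chr6:27146859-27146978 and H4C12 at chr6:27831561-27831680. The first 3 are the most abundant members past the 1.5-fold test with no annotated exon in the stretch. H4C12 went the other way, in a call that did not hold under every alternative. A link between motif and direction was not tested. They were chosen after their values had been seen.
H2BC21: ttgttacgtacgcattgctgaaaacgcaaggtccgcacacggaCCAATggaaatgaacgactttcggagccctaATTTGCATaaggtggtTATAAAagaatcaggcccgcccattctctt
H1-2: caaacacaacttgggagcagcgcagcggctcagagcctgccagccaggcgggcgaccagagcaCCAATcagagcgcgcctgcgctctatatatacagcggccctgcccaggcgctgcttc
H2BC12: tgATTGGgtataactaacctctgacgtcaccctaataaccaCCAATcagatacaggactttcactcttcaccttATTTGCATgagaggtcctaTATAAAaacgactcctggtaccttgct
H4C12: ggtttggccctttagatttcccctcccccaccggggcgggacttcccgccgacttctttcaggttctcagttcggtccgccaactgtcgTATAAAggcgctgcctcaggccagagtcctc
H2BC21 and H2BC12 held all 3 motifs, H1-2 only CCAAT and H4C12 only TATAAA.

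**Figure D3:**
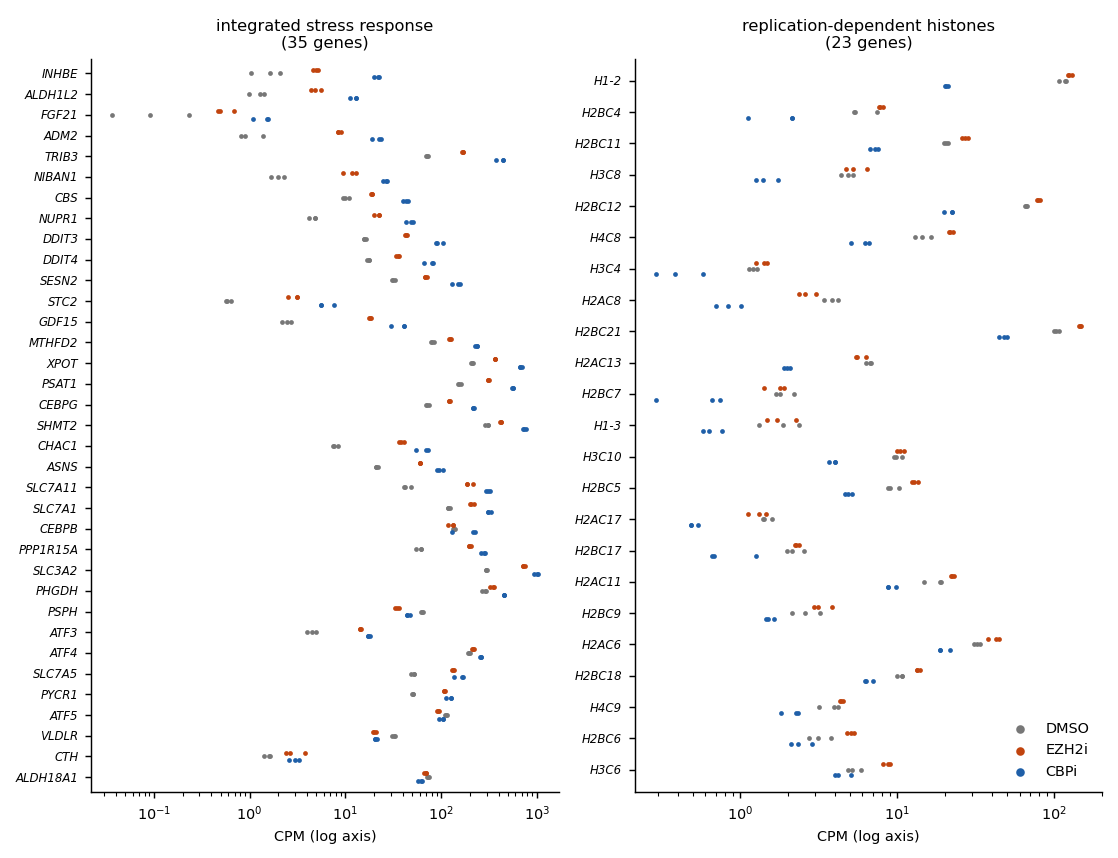
CPM on a log x axis in each library, with 1 row per gene and colours for DMSO (grey), EZH2i (orange) and CBPi (blue), for the 35 integrated stress response genes (left) and 23 histone genes past the 1.5-fold test with counts in every library drawn (right). On the left most genes run from grey over orange to blue, while on the right the blue points lie below both other groups.

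Most mitosis genes, and 25 of 46 DNA replication genes, were also higher with EPZ-6438. Of 57 mitosis genes tested, 53 were higher with EPZ-6438 and 1 (BUB3) with PRI-724, with a median of 0.34; 2 passed the 1.5-fold test, or 1 without EZH2i replicate 1 or 2 or CBPi replicate 2 or 3, and 4 with library size only. Both agents were mostly below baseline, where 44 of the 57 fell with EPZ-6438 and 55 with PRI-724 (28.3% and 29% of all genes tested). MKI67, the marker of cycling cells, was at 696, 644 and 590.2 CPM with EPZ-6438 and 364, 356 and 352 CPM with PRI-724, with 561 ± 73.8 CPM at baseline. The inhibitor groups did not overlap (log2 0.85 ± 0.09, adjusted p = 4e-06), and EPZ-6438 was not separated from baseline (adjusted p = 0.0616). KIF20A, a kinesin of cytokinesis, had 88.7, 88.3 and 91.5 CPM and 50.7, 53.9 and 52.3 CPM, with log2 0.77 ± 0.04 (adjusted p = 2.93e-11). DNA replication genes gave 25 and 1 of 46, with a median of 0.15 and none past the 1.5-fold test (1 with upper quartile scaling or library size only). RRM2, a subunit of ribonucleotide reductase, had the largest difference there, log2 0.68 ± 0.04 (adjusted p = 1.77e-10), and POLE2 was the member higher with PRI-724, a call lost without EZH2i replicate 1 or CBPi replicate 2 (adjusted p = 0.0585 and 0.0758).

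Targets of p53 did not follow 1 direction. CDKN1A, which encodes the cyclin-dependent kinase inhibitor p21, was at 229, 236 and 236 CPM with EPZ-6438 and 116, 104 and 111 CPM with PRI-724, on either side of 175 ± 0.445 CPM at baseline. Its log2 fold change was 1.08 ± 0.04 (adjusted p = 2.73e-13). BBC3, the pro-apoptotic PUMA, was the reverse, at 11.6, 10.3 and 13.7 CPM and 32.2, 22.9 and 31.1 CPM (log2 -1.28 ± 0.13, adjusted p = 7.68e-07). The p53 targets as a list gave 8 and 8 of 31, which is 51.6% called against 43.9% of all genes tested. Over all genes tested, 21.7% were higher with EPZ-6438 and 22.2% with PRI-724.

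Wnt target genes, on the pathway that PRI-724 is meant to interrupt, were mostly higher with EPZ-6438. Of 25 tested, 18 were higher with EPZ-6438 and 4 with PRI-724, at a median log2 fold change of 0.32. Against baseline, 18 rose and 3 fell with EPZ-6438, and 15 rose and 6 fell with PRI-724, with medians of 0.80 and 0.43. Over all genes tested, 29.5% rose and 28.3% fell with EPZ-6438, and 29.8% rose and 29% fell with PRI-724. CCND1, cyclin D1, was at 22.4, 22.8 and 22.6 CPM with EPZ-6438 and 9.06, 9.57 and 9.19 CPM with PRI-724, both above 2.24 ± 0.0674 CPM at baseline and clear of each other (log2 1.28 ± 0.09, adjusted p = 3.58e-10). NOTUM, a secreted Wnt deacylase, had 92.4, 95 and 90.8 CPM and 42.9, 34 and 45.9 CPM, and the CBPi libraries were not separated from the 43 ± 2.58 CPM of baseline (adjusted p = 0.504). Its log2 fold change between the inhibitors was 1.18 ± 0.08 (adjusted p = 1.09e-09).

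The feedback genes read most often as Wnt reporters differed by less. LEF1, AXIN2 and NKD1 had log2 fold changes of 0.47 ± 0.05, 0.17 ± 0.04 and 0.34 ± 0.05 (adjusted p = 1.1e-07, 0.00233 and 1.98e-05), all higher with EPZ-6438. The members higher with PRI-724 were MYC, CD44, DKK1 and PROX1. MYC was at 59.3, 56.4 and 55.3 CPM with EPZ-6438, not separated from baseline (58.4 ± 1.45 CPM, adjusted p = 0.592), and 93.7, 83.9 and 91.9 CPM with PRI-724, with log2 -0.66 ± 0.05 (adjusted p = 2.16e-09). CTNNB1, which encodes β-catenin, was at 951, 988 and 973 CPM and 1305, 1349.8 and 1341 CPM, log2 -0.46 ± 0.03 (adjusted p = 2.07e-09), with the lower values in the EZH2i libraries. CREBBP, which encodes CBP, and its paralog EP300 had 0.11 ± 0.06 and 0.07 ± 0.06 and did not pass (adjusted p = 0.143 and 0.391). TCF7L1, a DNA-binding partner of β-catenin that often acts as a repressor, was at 1.85, 2.02 and 2.15 CPM against 0.436, 0.705 and 0.765 CPM (log2 1.62 ± 0.23, adjusted p = 9.91e-06).

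The steroidogenic genes that both agents lowered were not lowered alike. Of 19 tested, 14 fell with EPZ-6438 and 16 with PRI-724 against baseline, beside 28.3% and 29% of all genes tested. Between the inhibitors, 7 of the 19 were higher with EPZ-6438 and 4 with PRI-724. HSD3B2, which turns pregnenolone into progesterone, was at 4.38, 4.37 and 3.08 CPM with EPZ-6438 and 3.44, 3.4 and 3.79 CPM with PRI-724, against 78.5 ± 6.63 CPM at baseline. The groups overlapped, and the log2 difference of 0.15 ± 0.14 did not pass (adjusted p = 0.4). CYP17A1, which opens the way to cortisol and adrenal androgens, was lower with PRI-724, at 4.22, 4.1 and 4.42 CPM against 12.8, 13.2 and 13.5 CPM with EPZ-6438 (log2 1.63 ± 0.08, adjusted p = 1.84e-12). CYP21A2, the 21-hydroxylase of cortisol and aldosterone synthesis, went the other way, at 85.5, 80.6 and 80.7 CPM with PRI-724 and 37, 39 and 38.1 CPM with EPZ-6438 (log2 -1.11 ± 0.05, adjusted p = 5.18e-13). Neither gene's groups overlapped. CYP21A2 has a near-identical pseudogene, so its counts are uncertain.

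Gaps were small for CYP11A1, STAR, SULT2A1 and NR5A1, but not for NR0B1 and MC2R. CYP11A1, the side-chain cleavage enzyme that starts steroid synthesis, was higher with PRI-724 (log2 -0.37 ± 0.05, adjusted p = 1.42e-06), and STAR, which carries cholesterol into mitochondria, had 0.15 ± 0.05 (adjusted p = 0.0151), a call lost without EZH2i replicate 2 or CBPi replicate 2 (adjusted p = 0.0784 and 0.066). SULT2A1 had -0.09 ± 0.09 and NR5A1 0.12 ± 0.05, and neither passed (adjusted p = 0.431 and 0.0584). NR0B1, which encodes DAX1, a repressor of steroidogenic transcription, was at 19.6, 19 and 22.4 CPM with EPZ-6438 and 8.67, 7.79 and 9.71 CPM with PRI-724, and the CBPi libraries were not separated from baseline (10.3 ± 1.25 CPM, adjusted p = 0.0679). Its log2 fold change was 1.22 ± 0.10 (adjusted p = 4.92e-09). MC2R, the ACTH receptor, had 1.05, 0.861 and 1.06 CPM and 0.242, 0.124 and 0.174 CPM, with 3.53 ± 0.543 CPM at baseline, and a log2 fold change of 2.45 ± 0.34 (adjusted p = 8.17e-06). Of the zona glomerulosa list, CCN3, a matricellular protein, was higher with PRI-724, at 715, 703 and 716 CPM against 265, 271 and 274 CPM (log2 -1.40 ± 0.04, adjusted p = 2.79e-15), either side of 451 ± 18.3 CPM at baseline.

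Lipid supply genes were partly separated. Of 27 cholesterol synthesis and uptake genes, 17 were higher with EPZ-6438 and 4 with PRI-724, with a median of 0.24. SREBF1, a master factor of fatty acid synthesis, was higher with PRI-724 (log2 -0.76 ± 0.07, adjusted p = 2.15e-08), and the desaturase FADS2 and elongase ELOVL2 were higher with EPZ-6438 (0.80 ± 0.04 and 2.27 ± 0.25, adjusted p = 2.04e-11 and 4.5e-07).

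Nearly all cytosolic ribosomal protein genes and most proteasome genes differed, by less than 1.5-fold in most cases. Of 79 cytosolic ribosomal protein genes, 76 were higher with PRI-724 and 0 with EPZ-6438, at a median log2 fold change of -0.44, and 1 passed the 1.5-fold test, or 6 without CBPi replicate 1 and 8 with no filter. Against baseline, 75 fell with EPZ-6438 and 31 with PRI-724 (28.3% and 29% of all genes tested), and 15 rose with PRI-724 (29.8%). RPL30, the one past the test, was at 178, 177 and 176 CPM with EPZ-6438 and 287, 336 and 301 CPM with PRI-724, either side of 236 ± 13.3 CPM, with log2 -0.80 ± 0.06 (adjusted p = 2.47e-09). Ribosomal protein genes are short and have many pseudogene copies. The share of calls that were higher with EPZ-6438 went from 41.2% in the quartile of shortest genes to 55.2% in that of the longest, with medians of -0.03 and 0.01, and its part in the ribosomal result was not tested. Proteasome subunits were the opposite, with 25 of 37 higher with EPZ-6438 and 2 with PRI-724 (1 without EZH2i replicate 3; median 0.25); PSMD3 had the largest value, 0.57 ± 0.04 (adjusted p = 4.6e-10).

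Mitochondrial transcripts differed gene by gene. The share of counts from the mitochondrial genome was 3.76% ± 0.58 with EPZ-6438 and 4.11% ± 0.64 with PRI-724 (SD, n = 3 each), which an exact 2-sided permutation test did not separate (p = 0.6, with 0.1 the smallest possible). Within it, 6 of 13 mRNAs were higher with PRI-724 and 1 with EPZ-6438. MT-ND2, a subunit of complex I, was at 1759.9, 1566 and 2193 CPM with EPZ-6438 and 3757, 4765 and 3931 CPM with PRI-724 (log2 -1.17 ± 0.16, adjusted p = 0.000276). MT-CO1, of complex IV, was at 5981, 5468 and 7522 CPM and 3745, 5093 and 4067 CPM (log2 0.56 ± 0.17, adjusted p = 0.0266), and this call was lost without EZH2i replicate 3 or CBPi replicate 1 or 3 (adjusted p = 0.0763, 0.0871 and 0.0824). The MT-ND2 groups lay apart in one direction and those of MT-CO1 in the other. Nuclear copies of mitochondrial genes could take or add reads, so these values are uncertain. Nuclear genes of the respiratory chain gave 23 higher with PRI-724 and 2 with EPZ-6438 of 76, which is 32.9% called against 43.9% of all genes. Without CBPi replicate 1 the count higher with PRI-724 was 36, and without CBPi replicate 2 the count higher with EPZ-6438 was 6.

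**Figure D4:**
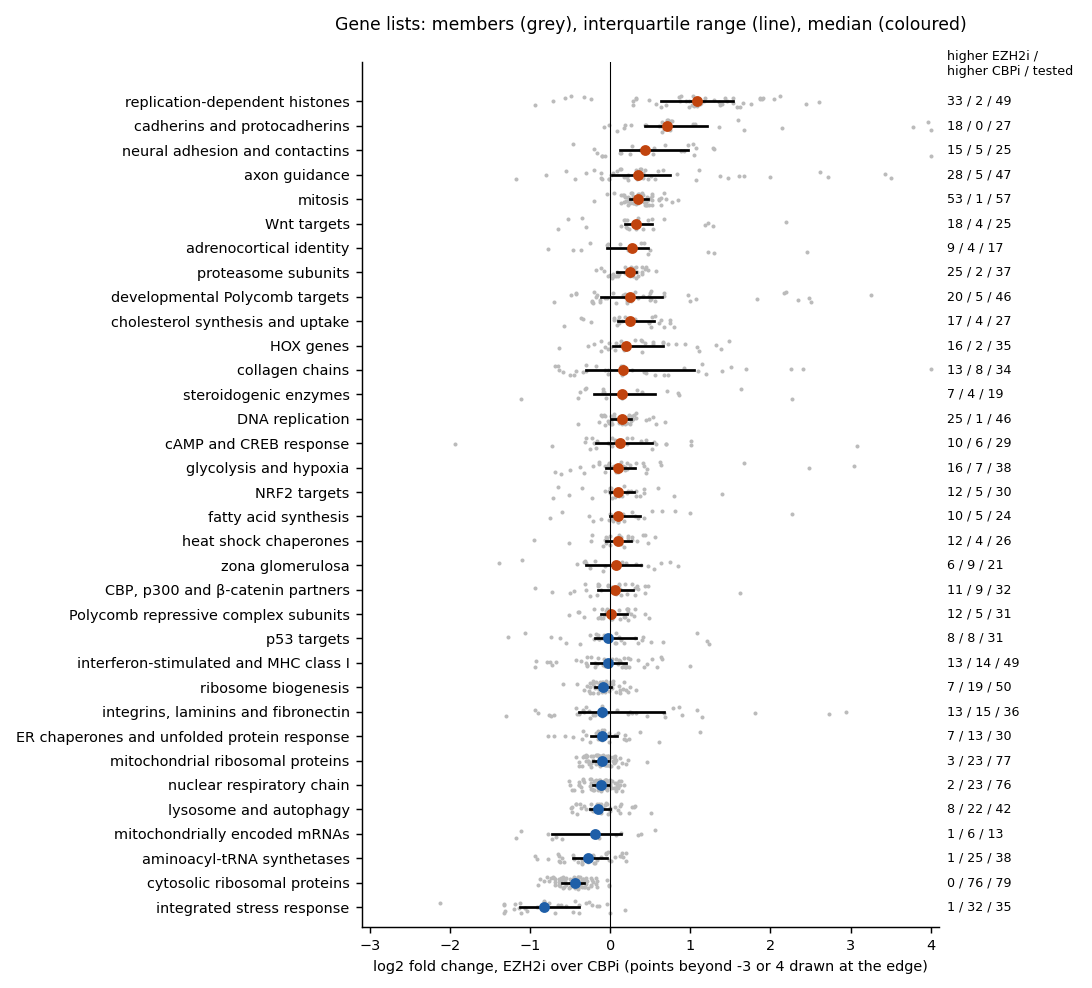
Log2 fold change of EZH2i over CBPi on the x axis for the members of each gene list with at least 10 tested genes (grey points), with the interquartile range as a line and the median as a coloured dot, and counts called in each direction at the right. Histones and cadherins lie furthest towards EPZ-6438, and the integrated stress response and cytosolic ribosomal proteins furthest towards PRI-724, while Polycomb subunits and p53 targets centre on 0.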

How the data were processed

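Polyadenylated RNA was sequenced. Per the submitters' processing notes, reads were aligned with STAR to hg38 and counted with featureCounts; tool versions, gene annotation, strandedness and how multimapped reads were treated are not stated in the material used. The authors deposited estimated counts (expected counts) for 60617 genes, of which 65.6% of non-zero values are whole within 1e-06, and a gene length column of another unit. Symbols were available for 60261 genes. Columns of other samples numbered 0.

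After rounding, counts went into edgeR 4.0.16 under R 4.3.3. The filter filterByExpr left 20360 genes, which were scaled by TMM. The quasi-likelihood model, with robust estimates, covered the 12 libraries in 4 groups. The contrast was EZH2i minus CBPi, adjusted by Benjamini-Hochberg over all genes tested, with a threshold of 0.05, and glmTreat tested against 1.5-fold. The biological coefficient of variation was 4.98%. P-values measure the spread between replicate cultures of 1 line, and counts limit precision most for genes under 1 CPM. Replicate pairs were compared by chi-square over genes with at least 200 counts per pair.

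Genes were named by a rule: the 10 largest differences in each direction past the 1.5-fold test at mean log2 CPM 1 or more (prior count 2) and without overlap, up to 4 per list with the largest values, members against a list's direction, and a fixed set of 34 genes. Exceptions are marked in the text. The members and the 40 lists were chosen with earlier results of these data known. Listed symbols NOV, H2AC18, TMEM55A, DDX58 and ICER matched no gene and were not used. Alternatives were DESeq2 1.42.0, limma 3.58.1 voom, other scalings, filters and samples in the fit, a fold of 2 and each library left out. The test was tried on simulated data. Positions come from GENCODE release 29. Some results are not reported here.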

Additional observations from a re-analysis of the deposited data

How the results depend on the processing

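The number of genes that differed was 8930 and lay between 7740 and 9107 over the alternatives (7740 to 8579 with 1 library left out). The number past the 1.5-fold test was 994, and 855 to 946 with 1 library left out. It fell to 579 with DESeq2 (429 higher with EPZ-6438, 150 with PRI-724) and to 338 with a fold of 2 (296 and 42). The cause was not tested, except that a fold of 2 is a stricter test. Of the list medians, these moved by more than their spread: with library size only, lysosome and autophagy -0.13 and glycolysis and hypoxia 0.13; with only the 6 inhibitor libraries, fibroblast markers 1.40 and endothelial markers -0.25; and with at least 1 CPM in 3 libraries, endothelial markers 3.50, from fewer genes, while no immune marker was then tested. With 1 library left out, medians ranged from 0.20 to 0.31 for cholesterol synthesis and uptake, 0.053 to 0.21 for cAMP and CREB response, 0.99 to 1.48 for fibroblast markers, -0.054 to 0.61 for endothelial markers and -0.64 to -0.055 for immune markers, the extremes being without CBPi replicates except the 0.99 (without EZH2i replicate 2). EED ranged from -0.013 to 0.029, EZH1 from -0.099 to 0.059 and LUM from -0.64 to 1.31, each changing sign and none being called. LUM was also at 0.0019 with upper quartile scaling and 0.011 with library size only. NR5A1 passed without CBPi replicate 1 or 3, SUZ12 without EZH2i replicate 1 or CBPi replicate 3, HSPA5 without CBPi replicate 2 and INHA without CBPi replicate 1. NR5A1, SUZ12 and HSPA5 also passed with limma voom (adjusted p = 0.0498, 0.0496 and 0.0418). In edgeR, NR5A1 also passed with upper quartile scaling, library size only and at least 1 CPM in 3 libraries (adjusted p = 0.0158, 0.0151 and 0.0428). No paired analysis was possible because the labels carry no replicate numbers, and the numbers used here only name libraries in the order of deposit. The doses of the agents differ, so compound and dose cannot be told apart, and genes under 1 CPM rest on few counts.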

Other observations

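Signalling and metabolic genes outside the comparisons above also separated the inhibitors. VGF, a secreted neuropeptide precursor, was at 1028, 1007 and 1072 CPM with EPZ-6438 and 568, 385 and 592 CPM with PRI-724, and CBPi replicate 2 was the lowest. Its log2 fold change was 1.01 ± 0.14 (adjusted p = 0.000235, edgeR's quasi-likelihood test). Chromogranins went the other way, with CHGB at 61.4, 57.2 and 55 CPM and 94.1, 91.1 and 95.3 CPM and CHGA at 4.26, 3.74 and 3.41 CPM and 5.86, 6.51 and 6.09 CPM, log2 -0.69 ± 0.05 and -0.69 ± 0.11 (adjusted p = 9.87e-10 and 5.39e-05). These proteins of dense secretory granules are also chromaffin markers, and the chromaffin enzymes TH, DBH and PNMT had at most 4 counts in any inhibitor library. EGLN3, a prolyl hydroxylase that marks hypoxia-inducible factors for destruction, was at 5.93, 6.32 and 4.93 CPM against 0.921, 1.04 and 1.08 CPM (log2 2.49 ± 0.17, adjusted p = 4.04e-10), while VEGFA, the vascular growth factor, was at 228, 224 and 236 CPM against 364, 368 and 379 CPM (log2 -0.69 ± 0.04, adjusted p = 2.66e-11). KDR, the receptor of VEGFA and an endothelial marker, was at 3.27, 3.34 and 2.28 CPM against 0.388, 0.414 and 0.0348 CPM (log2 3.49 ± 0.36, adjusted p = 2.05e-07), with VWF at means of 0.248 and 0.164 CPM. KDR did not speak for its list: of 4 endothelial markers tested, 1 was called in each direction, at a median log2 fold change of 0.11.

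Several lists held calls in both directions, beside 21.7% higher with EPZ-6438 and 22.2% higher with PRI-724 over all genes tested. Glycolysis and hypoxia genes gave 16 higher with EPZ-6438 and 7 with PRI-724 of 38, interferon-stimulated and MHC class I genes 13 and 14 of 49, cAMP and CREB response genes 10 and 6 of 29, heat shock chaperones 12 and 4 of 26, fatty acid synthesis genes 10 and 5 of 24, adrenocortical identity genes 9 and 4 of 17, zona glomerulosa genes 6 and 9 of 21, and partners of CBP, p300 and β-catenin 11 and 9 of 32. Lists that leaned towards PRI-724 were lysosome and autophagy genes, 8 and 22 of 42, ribosome biogenesis, 7 and 19 of 50, and mitochondrial ribosomal proteins, 3 and 23 of 77, of which 33.8% were called against 43.9% of all genes. The counts higher with EPZ-6438 were unstable: 5 for lysosome and autophagy without EZH2i replicate 2, 4 for ribosome biogenesis without CBPi replicate 3, and 1 for mitochondrial ribosomal proteins without EZH2i replicate 3 or CBPi replicate 1 or 3. Of the marker lists, endothelial genes gave 1 and 1 of 4 tested, immune genes 0 and 0 of 3 and Schwann cell genes 0 and 0 of 2, with 1 immune gene higher with EPZ-6438 without CBPi replicate 2 and 1 Schwann cell gene without CBPi replicate 3.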
